A study of Mus musculus with 4 samples.

Results

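Accessible chromatin was described at 9 genes of the Nodal and TGF-beta pathway: the ligand gene Nodal, the co-receptor gene Tdgf1, the receptor gene Acvr2b, the signal carriers Smad2 and Smad3, and the inhibitors Lefty1, Lefty2, Smad7 and Skil. A region belonged to a gene when it overlapped the gene's mm10 span or the 20 kb on either side. These 9 windows held 121 of the 170898 accessible regions of the study, and the genes are 9 of 21887 protein-coding genes. The regions came from ATAC-seq, an assay that reads out where a transposase can reach the DNA, and each is a stretch where at least 1 library had a called peak. All cells were 2TS22C, a mouse embryonic stem cell line, grown in 2i serum/Lif, treated with DOX, and with their endogenous Sox2 silenced per the labels. A lentivirus supplied SOX2 to one group and SOX17FNV, an engineered SOX17, to the other. Each group had 2 libraries, titled as biological replicates and made from 900000 cells each. Nothing in the labels says whether the replicates were separate transductions, so every test below measures only the spread between these libraries.

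Nodal is a secreted ligand of the TGF-beta family that binds activin receptors together with the co-receptor encoded by Tdgf1, also called Cripto. The receptors phosphorylate SMAD2 and SMAD3, which join SMAD4 and act on DNA with partners such as FOXH1. The signal switches on its own inhibitors: Lefty1 and Lefty2 block the ligand outside the cell, SMAD7 blocks the receptor, and SKIL holds back the SMAD complex on DNA. In mouse embryonic stem cells the pathway is active through Nodal made by the cells themselves, and Lefty1, Lefty2, Smad7 and Skil are known targets of it.

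The peak lists held 92851 to 123214 peaks, and replicate 1 had the longer list in both groups. Read totals were not used here, so the depth behind a region is given by its summit pileup, the number of overlapping fragments or reads at its highest point, solved from the authors' peak values. The lowest pileup that was listed ranged from 10 to 13 by library. Pileups were compared between libraries as relative pileups, each divided by its library's median over the 57783 regions called in all 4 libraries, a median of 33 and 24 in the SOX17FNV replicates and 35 and 28 in the SOX2 replicates. As a check of the cell type, all 8 embryonic stem cell markers had a peak within 1 kb of a gene end in every library, against 66.8% to 70.2% of all genes. These 8 include Tdgf1, itself a member, so the check partly used a gene under study. The same held for 4 of 6 feeder fibroblast markers and 4 of 6 primitive endoderm markers in every library, with Col3a1, Postn, Dab2 and Gata4 at none, and for 3 or 4 of 4 neural markers. A peak at a gene end therefore marked genes of other cell types as well, and the part of other cells in the results was not tested.

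Of the members, 4 had a transcription start and an upstream sequence in the RefSeq promoter table for GRCm38.p6, the assembly of mm10: Nodal, Tdgf1, Acvr2b and Smad3. Their 250 bases before the start are shown because a called region covered them in every library, wholly or in part, and because the start regions of these genes carry several of the comparisons below. Capitals mark the letters searched for: the SMAD box CAGAC, the GC-rich SMAD site GGCGC, and the SOX core ACAAAG, each on either strand, so that a match on the opposite strand reads GTCTG for the first, GCGCC for the second and CTTTGT for the third.
Nodal: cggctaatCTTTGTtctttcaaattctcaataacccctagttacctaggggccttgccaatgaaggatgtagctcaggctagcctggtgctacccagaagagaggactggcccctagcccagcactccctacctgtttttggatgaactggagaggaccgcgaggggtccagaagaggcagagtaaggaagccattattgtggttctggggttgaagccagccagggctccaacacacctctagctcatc
Tdgf1: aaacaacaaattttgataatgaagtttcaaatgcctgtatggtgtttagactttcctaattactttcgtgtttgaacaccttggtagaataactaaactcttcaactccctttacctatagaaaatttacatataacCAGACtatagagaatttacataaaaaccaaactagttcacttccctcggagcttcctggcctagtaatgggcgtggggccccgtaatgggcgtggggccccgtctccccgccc
Acvr2b: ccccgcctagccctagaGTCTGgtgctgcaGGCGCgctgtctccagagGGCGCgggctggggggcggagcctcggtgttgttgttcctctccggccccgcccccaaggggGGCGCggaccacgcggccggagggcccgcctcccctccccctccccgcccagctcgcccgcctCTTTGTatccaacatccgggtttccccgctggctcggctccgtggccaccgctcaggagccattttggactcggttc
Smad3: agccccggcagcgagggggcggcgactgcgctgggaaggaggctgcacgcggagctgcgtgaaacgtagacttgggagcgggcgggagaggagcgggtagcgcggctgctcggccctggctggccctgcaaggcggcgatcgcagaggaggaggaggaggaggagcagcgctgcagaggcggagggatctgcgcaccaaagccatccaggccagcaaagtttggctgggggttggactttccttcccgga

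The Nodal sequence (chr10:61417722-61417971, plus strand) held 1 SOX core, on the opposite strand at 242 to 237 bases before the start. The Tdgf1 sequence (chr9:110946159-110946408, minus strand) held 1 SMAD box at 113 to 109 bases before the start. The richest in matches was Acvr2b (chr9:119401928-119402177, plus strand), with 3 GC-rich SMAD sites starting 220, 202 and 140 bases before the start, 1 opposite-strand SMAD box at 233 to 229 and 1 opposite-strand SOX core at 77 to 72. No searched letters occurred in the Smad3 sequence (chr9:63757995-63758244, minus strand). Such matches are common: among 32851 promoters of the same length, 42.2% held CAGAC, 32.0% GGCGC and 16.5% ACAAAG. The SOX core ACAATG (10.7% of promoters), the FOXH1 letters AATNCACA (3.18%) and the SOX and OCT pair written TTGTNATGC (0.648%) or TTGTATGC (0.371%) were found in none of the 4. Base composition separated them, with GC contents of 72.8% and 69.2% and 24 and 22 CpGs in Acvr2b and Smad3. Nodal had 53.2% and 3 CpGs and Tdgf1 42.0% and 7, beside medians of 52.4% and 6 over all promoters.

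Few regions at these genes were called in one group alone, and the 1 shared region that passed the test lay beside Lefty1. Of the 121 regions, 46 (38.0%) were called in all 4 libraries, against 33.8% of all regions. Only 1 (0.826%) was called in both SOX17FNV libraries and neither SOX2 library, against 3.06% of all regions, and 3 (2.48%) in both SOX2 libraries and neither SOX17FNV library, against 4.09%. The other 71 followed no group: 42 were called in 1 library, and 9 (7.44%) in both replicate 1 libraries and no replicate 2 library, near the 6.92% of all regions. Of 15 regions called in 3 libraries, 10 were missing in SOX2 replicate 2 alone and 4 in SOX17FNV replicate 2 alone.

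**Figure D1:**
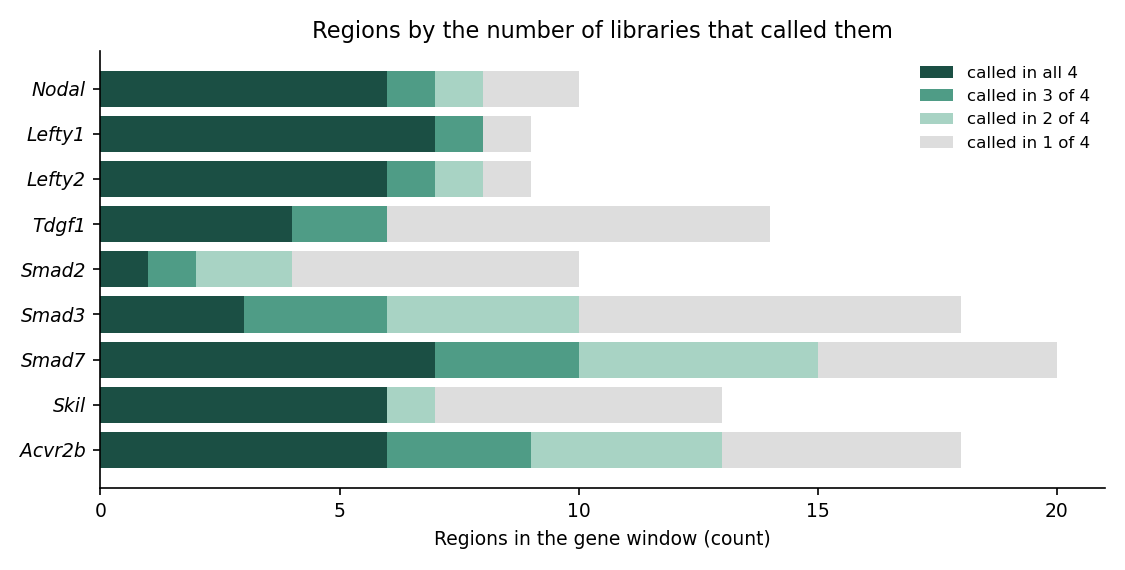
Each bar is 1 gene, the x axis counts the regions of its window, and the shades show in how many of the 4 libraries a region was called. Smad7, Smad3 and Acvr2b had the most regions (20, 18 and 18), and at Lefty1 7 of 9 were called in all 4 libraries, against 3 of 18 at Smad3 and 1 of 10 at Smad2.

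Over the 46 shared member regions the median log2 difference in relative pileup, SOX17FNV minus SOX2, was 0.11, against 0.04 over all shared regions, and 30 of 46 (65.2%) were positive, against 55.2%. In 19 of them (41.3%) both SOX17FNV libraries lay above both SOX2 libraries, against 24.1% of all shared regions. The reverse held for 5 (10.9%), against 18.4%. Of the 19, 9 were Lefty1 or Lefty2 regions. On the authors' fold enrichment, which divides the pileup by the local background, the counts were 10 (21.7%, against 15.7% of all shared regions) and 7 (15.2%, against 18.6%). In the limma fit over all shared regions, 1 member region rose in SOX17FNV at an adjusted p under 0.05 and 0 fell, where 0.893% of all shared regions rose and 1.23% fell. At an unadjusted p under 0.05 there were 9 member regions higher and 2 lower, beside 7.46% and 6.07% of all shared regions. The 9 were spread over Nodal, Lefty1, Lefty2, Smad2 and Acvr2b, and both lower ones were at Smad3.

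**Figure D2:**
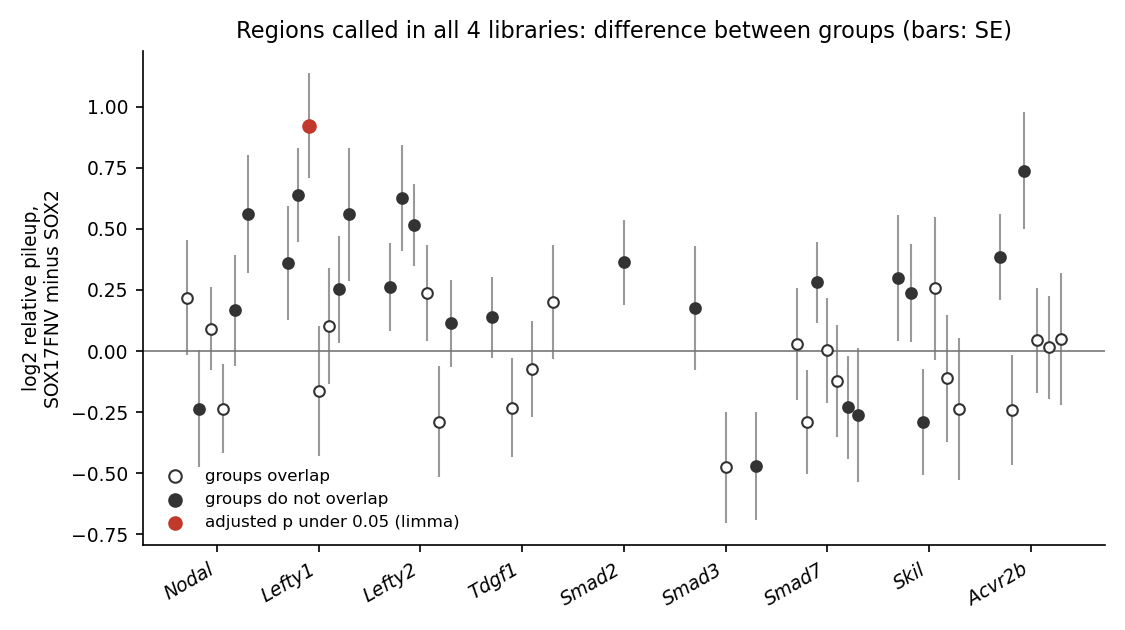
Log2 difference in relative summit pileup (SOX17FNV minus SOX2, y axis) for the 46 member regions called in all 4 libraries, grouped by gene; points are limma estimates from 2 libraries per group and bars are 1 standard error, with filled points where the groups do not overlap and red for an adjusted p under 0.05. The Lefty1 region at 0.92 stands highest and is the only one past the adjusted threshold, and both lowest points, at -0.48 and -0.47, belong to Smad3.

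At the ligand gene Nodal (chr10:61417972-61425338) the region before the gene had among the highest relative pileups of the study, with overlapping values in the groups. The strongest of its 10 regions (chr10:61415462-61416874) ended 1098 bp before the start, with its summits near -1792 bp from it. Pileups there were 79 and 61 in the SOX17FNV replicates and 72 and 73 in the SOX2 replicates, which gave relative pileups of 2.39, 2.54, 2.06 and 2.61. SOX2 replicate 1 was lowest and SOX2 replicate 2 highest, so the groups overlapped. Its mean relative pileup was at percentile 98.3 of all shared regions. The local background there was also high, at 3.90 to 6.29 times the genome-wide one. Fold enrichment was 3.32 and 3.97 with SOX17FNV and 2.68 and 3.60 with SOX2. The log2 difference was 0.09 ± 0.17 (SE, limma adjusted p = 0.883), and its sign turned under some alternatives.

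A second region (chr10:61416896-61418965) covered the Nodal start and the sequence shown above. Its pileups were 59 and 33 with SOX17FNV and 71 and 47 with SOX2, or 1.79, 1.38, 2.03 and 1.68 relative to the library medians. The lower replicate of each group was replicate 2, and the groups overlapped (log2 difference -0.24 ± 0.18 SE, limma adjusted p = 0.635). Peaks covered 100% and 69.6% of the 250 upstream bases in the SOX17FNV replicates and 85.2% and 100% in the SOX2 replicates. Farther out, a region 14536 bp above the gene, inside the span of Eif4ebp2 (chr10:61439874-61440669), had pileups of 39 and 24 with SOX17FNV and 28 and 19 with SOX2. Relative to the medians the groups did not overlap there, at 1.18 and 1.0 against 0.80 and 0.68, but the difference of 0.56 ± 0.24 missed the threshold (limma adjusted p = 0.271). Fold enrichment of this distal region was 4.85 and 4.04 against 3.82 and 2.56. That was above the region before the gene in every library but SOX2 replicate 2. The remaining 7 Nodal regions included 3 called in all 4 libraries, with log2 differences between -0.24 and 0.22.

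**Figure D3:**
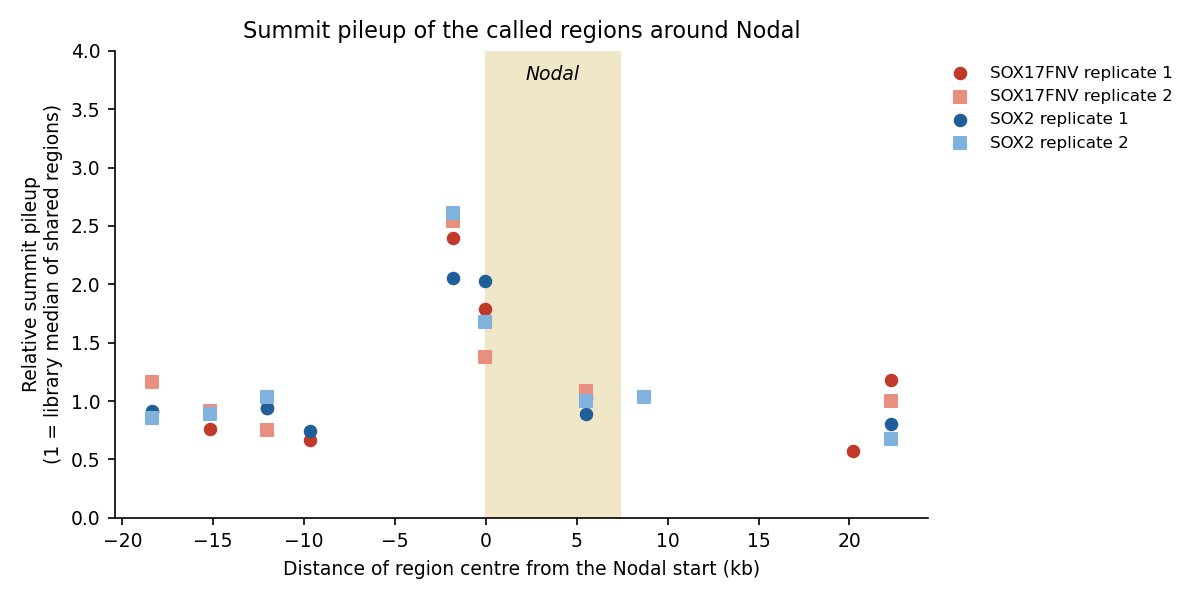
Relative summit pileup (y axis) of each called region in the Nodal window by distance of its centre from the Nodal start in kb (x axis); each point is 1 library and the shaded band is the gene span. The regions just before and at the start are above the rest in every library, and the values of the groups interleave there.

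The co-receptor gene Tdgf1 (chr9:110939608-110946158, minus strand) had its strongest region over the start and the DNA before it (chr9:110946107-110948325). Pileups were 84 and 60 with SOX17FNV and 83 and 62 with SOX2, and the relative pileups of 2.55, 2.50, 2.37 and 2.21 put it at percentile 98.3 of all shared regions. Both SOX17FNV values were above both SOX2 values by a small margin, and the log2 difference of 0.14 ± 0.17 did not pass (limma adjusted p = 0.794). The summits lay within 115 bp of each other, about 1446 bp before the start, so the highest point was outside the 250 bases shown. Peaks covered those bases wholly in 3 libraries and to 16.8% in SOX17FNV replicate 2. Of the 14 Tdgf1 regions only 4 were called in all 4 libraries, and 8 were called in a single library, 5 of them SOX2 replicate 1. The other 3 shared regions lay within the span of the neighbouring gene Lrrc2 and differed by -0.23 to 0.20.

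Acvr2b (chr9:119401583-119442148) encodes a type II activin receptor, which binds the ligand and activates the type I receptor. Its start region (chr9:119401507-119402211), which covered all of the GC-rich sequence shown above in every library, had pileups of 63 and 50 with SOX17FNV and 52 and 44 with SOX2. The relative pileups of 1.91 and 2.08 against 1.49 and 1.57 did not overlap. The log2 difference was 0.38 ± 0.17 (limma adjusted p = 0.309). A region inside the gene (chr9:119419631-119420249) had pileups of 42 and 30 against 33 and 17, or 1.27 and 1.25 against 0.94 and 0.61, with SOX2 replicate 2 the lowest. Its log2 difference of 0.74 ± 0.24 was the second highest among the members and missed the threshold (limma adjusted p = 0.102), and it was 0.37 without SOX2 replicate 2 and 0.48 on fold enrichment.

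One more Acvr2b region (chr9:119434011-119434256), inside the gene, was called with a pileup of 22 in each SOX2 library and in neither SOX17FNV library. Like the other 3 regions called in 1 group alone, named below, it was no longer one at a -log10 q of at least 5 or with the strongest 50000 peaks of each list. The other 4 shared Acvr2b regions differed by -0.24 to 0.05. The 11 regions without a group pattern had pileups of 15 to 42, and 5 of them were called in 1 library, 4 of those in SOX17FNV replicate 1.

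Smad2 (chr18:76241090-76311748) carries the signal from the receptor to the nucleus and had little open chromatin besides its end. The single Smad2 region called in all 4 libraries (chr18:76240768-76241929) covered the lower end of the gene span. Its pileups were 62 and 55 with SOX17FNV and 58 and 44 with SOX2, or 1.88 and 2.29 against 1.66 and 1.57. The SOX17FNV libraries were both higher, with a log2 difference of 0.36 ± 0.18 (limma adjusted p = 0.352). The other 9 regions had pileups of 10 to 20, close to the lowest listed, and 6 of them were called in 1 library.

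Smad3 (chr9:63646766-63757994, minus strand), the second receptor-activated SMAD, had the lowest median log2 difference of the members, -0.47 over 3 shared regions. Its start region (chr9:63756699-63758740) had pileups of 32 and 20 with SOX17FNV and 39 in each SOX2 library. Relative to the medians this was 0.97 and 0.83 against 1.11 and 1.39, without overlap, and the log2 difference was -0.47 ± 0.22 (limma adjusted p = 0.333). The median summit position was 208 bp before the start, within the sequence shown above. A region inside the gene (chr9:63741699-63742431) had pileups of 46 and 18 against 55 and 36, with SOX17FNV replicate 1 within the SOX2 range at 1.39, and differed by -0.48 ± 0.23 (limma adjusted p = 0.347). That value rested on the SOX17FNV replicates: it was -0.94 and passed without replicate 1 (limma adjusted p = 0.0161), and was -0.03 without replicate 2. On fold enrichment the Smad3 differences were -0.16 at the start and -0.12 inside the gene. Only 3 of the 18 Smad3 regions were called in all 4 libraries. Of the other 15, 5 were called in SOX2 replicate 1 alone and 4 in both replicate 1 libraries alone.

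Lefty1 (chr1:180935022-180938401) and Lefty2 (chr1:180893108-180899107) lie next to each other on chromosome 1, and their windows overlap without sharing a region. Together they had 18 regions, of which 13 were called in all 4 libraries. In 9 of those 13 (69.2%, against 24.1% of all shared regions) both SOX17FNV libraries were above both SOX2 libraries, and in 0 (against 18.4%) the reverse held. On fold enrichment this lean was gone, with 2 of 13 in each direction (15.4%, against 15.7% and 18.6% of all shared regions). The median log2 difference was 0.36 over 7 Lefty1 regions and 0.25 over 6 Lefty2 regions. Shared regions within 1 Mb of each gene and outside its own window had medians of 0.12 and 0.13, above the 0.02 of chromosome 1. These surroundings also had positive medians, but each set includes the regions of the other Lefty gene.

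The region that passed the test ended 97 bp below the Lefty1 span (chr1:180933379-180934925), inside the span of the long noncoding RNA gene Gm39715. Its pileups were 49 and 40 with SOX17FNV and 25 and 27 with SOX2, or 1.48 and 1.67 against 0.71 and 0.96 relative to the library medians. The group means were 1.58 ± 0.13 and 0.84 ± 0.18 (SD, n = 2). Both SOX17FNV libraries were higher, a ratio of 1.90 and a log2 difference of 0.92 ± 0.21 (SE, limma adjusted p = 0.0125). The region held several summits, and which of them was highest differed between libraries.

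Summits at matched places were then read, a comparison chosen after the values were seen. At the summit 1111 bp below the gene, pileups were 46 and 40 with SOX17FNV and 18 and 27 with SOX2, and the relative pileups of 1.39 and 1.67 stayed above 0.51 and 0.96. At the summit 417 bp below the gene, they were 49 and 20 against 25 and 27, and the groups overlapped. The local background under the region, over the genome-wide background, was also higher with SOX17FNV, at 2.49 and 2.64 against 1.64 and 1.73. On the authors' fold enrichment, which divides by that background, the highest values in the region were 4.66 and 4.26 against 3.32 and 2.95. With each library's fold divided by its median over the shared regions, the log2 difference was 0.35 and limma gave an adjusted p of 0.833.

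Other settings mostly left the difference in place while its p-value moved. The log2 difference was 1.13 with scaling to the genome-wide background (limma adjusted p = 0.924), where the median of all shared regions also moved, to 0.24. It was 0.88 with quantile normalisation (0.0526), 0.92 in a fit without the trend (0.0763) and 0.83 without SOX17FNV replicate 2 (0.0868), and the call was lost in all 4 of these settings. It was smaller, and also not called, without SOX2 replicate 1 at 0.65 (limma adjusted p = 0.343) and with scaling to the median within 1 Mb at 0.75 (0.151). The call held with chromosome medians (limma adjusted p = 0.0115), without SOX17FNV replicate 1 (0.0182) and without SOX2 replicate 2 (0.0125).

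Other Lefty regions had higher pileups in both SOX17FNV libraries without passing the threshold in the main fit. The Lefty1 region 9482 bp below the gene (chr1:180924521-180925540) had pileups of 52 and 46 against 36 and 34, or 1.58 and 1.92 against 1.03 and 1.21, and a log2 difference of 0.64 ± 0.19 (limma adjusted p = 0.0729). The strongest region of all 9 windows lay 2981 bp below Lefty2 (chr1:180888025-180890127), at percentile 99.5 of all shared regions. Its pileups were 94 and 82 against 73 and 64, or 2.85 and 3.42 against 2.09 and 2.29, with a log2 difference of 0.51 ± 0.17 (limma adjusted p = 0.103). In both regions the lowest SOX17FNV library was above the highest SOX2 library. On fold enrichment the log2 differences were 0.05 and 0.21. Without one library they ranged from 0.46 to 0.76 for the Lefty1 region and from 0.38 to 0.63 for the Lefty2 region. The highest of each was without SOX17FNV replicate 1. A fit with the replicate number as a block called both regions (limma adjusted p = 0.0111 and 0.00207), though that number alone does not show pairing.

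The Lefty2 region 14883 bp below the gene (chr1:180877589-180878225) had pileups of 47 and 32 against 27 and 29, or 1.42 and 1.33 against 0.77 and 1.04, and differed by 0.62 ± 0.22 (limma adjusted p = 0.135), or by 0.20 on fold enrichment. The region inside Lefty2 near its lower end (chr1:180893855-180894875) had pileups of 45 and 38 against 39 and 39, overlapped between groups and differed by 0.24 ± 0.20 (limma adjusted p = 0.663), or by 0.08 on fold enrichment. The 1 member region called with SOX17FNV alone lay 11693 bp above Lefty2 (chr1:180910800-180911287), with pileups of 19 and 14, where the lowest listed in those libraries were 11 and 10. It adjoined a region called in 3 libraries, with pileups of 31 and 16 with SOX17FNV and 26 in SOX2 replicate 1.

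**Figure D4:**
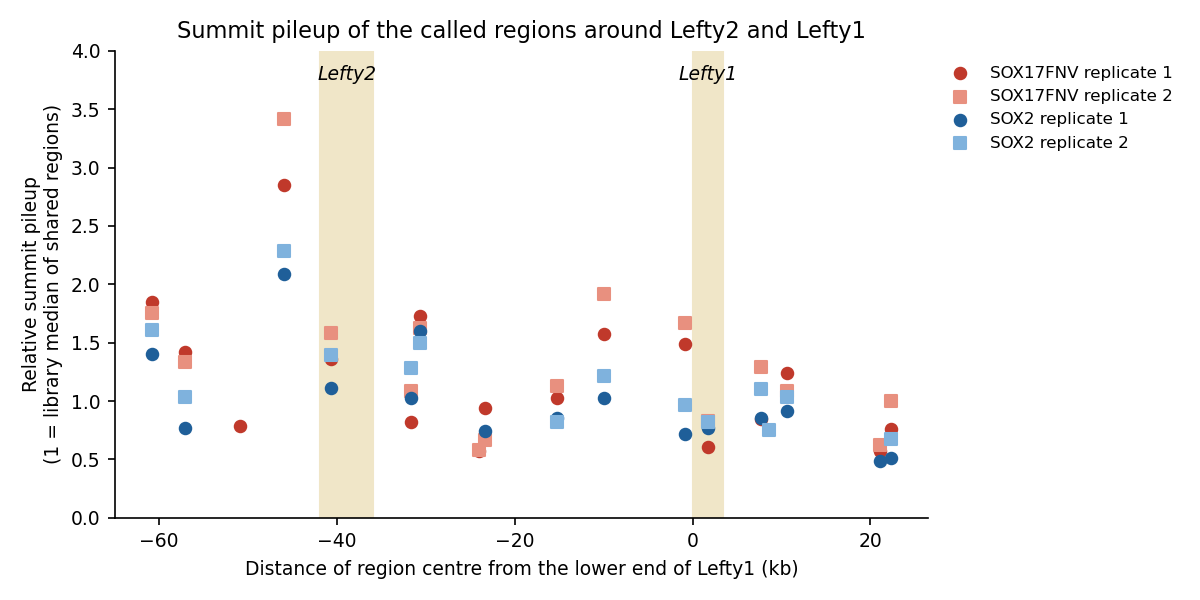
Relative summit pileup (y axis) of each called region around Lefty2 and Lefty1 by distance of its centre from the lower end of the Lefty1 span in kb (x axis); each point is 1 library and the shaded bands are the gene spans. In the regions just below each gene both SOX17FNV libraries are above both SOX2 libraries, and inside the genes the groups overlap.

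Smad7 (chr18:75367365-75395935), the inhibitory SMAD, had a strong region over the lower end of its span (chr18:75366415-75367870), where the long noncoding RNA gene Gm20544 also lies. Pileups were 85 and 70 with SOX17FNV and 79 and 63 with SOX2, or 2.58 and 2.92 against 2.26 and 2.25, at percentile 98.9 of all shared regions. The groups did not overlap, and the log2 difference was 0.28 ± 0.17 (limma adjusted p = 0.484). Beyond the upper end, 306 bp from the gene, a region (chr18:75396241-75396594) was called with pileups of 34 and 30 in the SOX2 libraries and in neither SOX17FNV library. Its fold enrichment there was only 1.822 and 1.796. The -log10 q was 1.82 and 1.31, the second close to the lowest listed. It was not called with SOX2 alone when the lists had equal length. The next region outward (chr18:75397340-75398037) was called in 3 libraries, with pileups of 29 in SOX17FNV replicate 1 and 44 and 40 with SOX2. On the gene side, a region inside the upper end (chr18:75395025-75395326) was called in SOX17FNV replicate 2 alone, with a pileup of 25. A second region called with SOX2 alone lay 16717 bp below the gene (chr18:75350162-75350648), with pileups of 22 and 21. The median log2 difference over the 7 shared Smad7 regions was -0.12, with 3 positive and 4 negative.

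Skil (chr3:31095058-31122923), which encodes the SMAD corepressor SnoN, had a pair of shared regions at its lower end that leaned in opposite directions. Across the end (chr3:31094569-31095126), pileups were 48 and 30 with SOX17FNV and 40 and 32 with SOX2, or 1.45 and 1.25 against 1.14 in each SOX2 library, and the log2 difference was 0.24 ± 0.20 (limma adjusted p = 0.671). Just inside the gene (chr3:31095372-31096120), pileups were 33 and 23 against 38 and 37, or 1.0 and 0.96 against 1.09 and 1.32, and the difference was -0.29 ± 0.22 (limma adjusted p = 0.614). Neither pair of groups overlapped, and neither difference passed. A region 957 bp below the gene (chr3:31093797-31094101) was called in SOX17FNV replicate 1 and SOX2 replicate 2, with pileups of 24 and 23, and one 97 bp above the upper end (chr3:31123020-31123200) in SOX17FNV replicate 1 alone, with a pileup of 13.

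The share of each window covered by peaks overlapped between groups for all 9 genes, where 6.00% of 21887 gene windows were higher in both SOX17FNV libraries and 8.76% in both SOX2 libraries. Exact two-sided permutation tests gave p = 0.667 or p = 1, and 2 libraries against 2 cannot give a p below 0.333. Lefty2 was the most covered, at 13.8% and 13.2% with SOX17FNV and 13.3% and 10.5% with SOX2. Tdgf1 followed, at 12.9% and 10.8% against 16.5% and 10.6%, and both were at percentile 97.3 of all genes by their mean. Nodal had 12.5% and 9.47% against 11.3% and 11.2%, and Lefty1 12.5% and 9.22% against 10.5% and 8.97%. The ranges of these 4 genes overlapped, so their order is not firm.

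Next in order, Smad7 was covered to 11.1% and 6.69% with SOX17FNV and 11.0% and 9.02% with SOX2, and Acvr2b to 8.06% and 5.58% against 7.75% and 4.90%. Skil was near the middle of all genes at 5.18% and 4.39% against 4.78% and 3.93%. Smad3, at 3.47% and 1.3% against 6.0% and 1.73%, and Smad2, at 3.16% and 0.736% against 1.67% and 1.37%, were below the median, at percentiles 38.3 and 26.3. The median over all gene windows was 5.12% and 3.46% with SOX17FNV and 5.20% and 3.52% with SOX2. Replicate 1 of each group had the larger covered share in all 9 windows, as in the median of all windows.

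**Figure D5:**
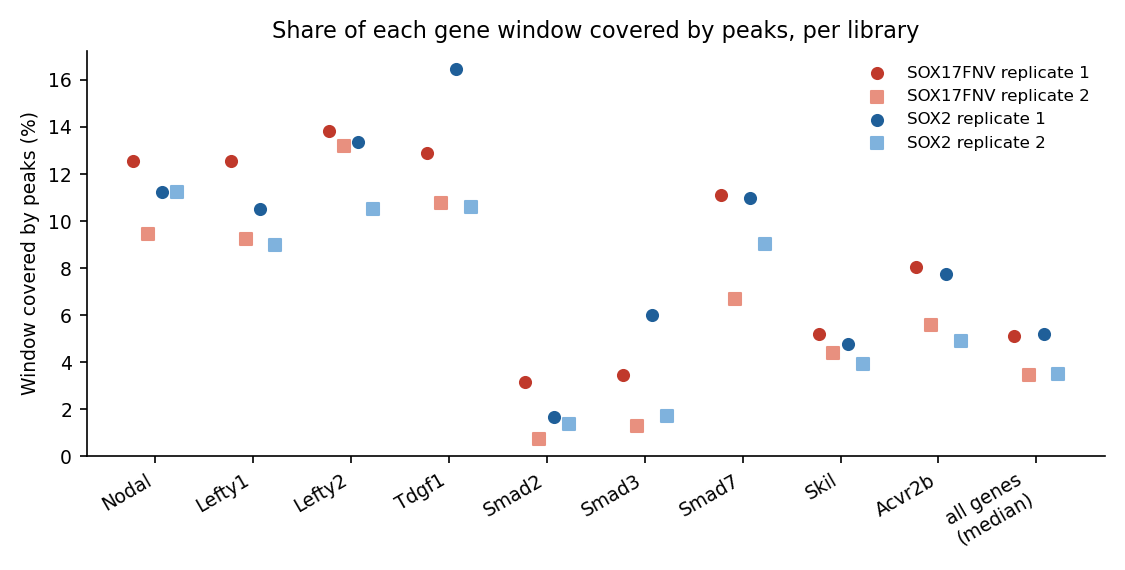
Percent of each gene window covered by peaks in each library (y axis), with the median of all protein-coding gene windows beside them; red marks SOX17FNV and blue SOX2, circles replicate 1 and squares replicate 2. Replicate 1 lies above replicate 2 in every gene and group, and the groups overlap for all 9 genes.

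For 8 of the members, the gene with the most similar coverage profile was taken among the other members and 37 further pathway genes, by Euclidean distance between the 4 library values divided by their mean. Acvr2b was nearest to Foxh1, the SMAD partner (distance 0.0302). Lefty1 and Lefty2 were both nearest to Skil (0.109 and 0.0965). Skil was nearest to Lefty2 (0.0965), Tdgf1 to Ski (0.0816) and Smad7 to Tgif2 (0.139). Smad2 and Smad3 were much farther from their nearest genes, Tgfbr1 (0.341) and Acvr2a (0.430), so those pairs were not close. With 4 libraries that share a replicate offset these distances are descriptions only.

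The 37 further genes of the pathway (ligands, convertases, receptors, SMAD partners, inhibitors and targets) had 433 regions within 20 kb. Of these, 174 (40.2%, against 33.8% of all regions) were called in all 4 libraries. With SOX17FNV alone 11 (2.54%, against 3.06%) were called, and 7 (1.62%, against 4.09%) with SOX2 alone. Among the 174, both SOX17FNV libraries were higher in 36 (20.7%) and both SOX2 libraries in 25 (14.4%), both below the shares over all shared regions. In the limma fit 1 of the 174 (0.575%) rose in SOX17FNV and 0 fell, where 0.893% of all shared regions rose and 1.23% fell. The region that rose was inside Pmepa1, a SMAD-binding inhibitor and known TGF-beta target (chr2:173237995-173239643), with pileups of 47 and 35 against 28 and 25 and a log2 difference of 0.77 ± 0.21 (limma adjusted p = 0.0436). By role, both SOX17FNV libraries were higher, and both SOX2 libraries higher, in 8 and 5 of 32 shared regions of the ligand genes, 1 and 4 of 16 of the convertases, 5 and 5 of 27 of the receptors, 4 and 0 of 17 of the SMAD partners, 4 and 2 of 19 of the extracellular inhibitors, 8 and 7 of 46 of the intracellular inhibitors and 6 and 2 of 17 of the targets. The shares over all shared regions were 24.1% and 18.4%.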

How the data were processed

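ATAC-seq was run on 4 libraries, 2 per group, grouped by their titles. The authors' deposited files are peak lists, 1 for each library, and a list's peak names carry a single library. Per the submitters' processing notes, the tools were Bowtie2, SAMtools and MACS2 and the build mm10. Versions, filters and whether reads were shifted for the enzyme: not given in the sources used here. The deposited lists hold the fold enrichment of each summit, a ratio to the local background, its −log10 p and −log10 q, and a score made from the q-value. The members and gene lists were chosen with earlier results of these data known.

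Peaks that overlapped by at least 1 bp on chromosomes 1 to 19, X and Y were merged into regions. The summit pileup was solved from the fold and the Poisson p that MACS2 writes, and 100% of summits in each list gave a whole number (tolerance 0.001 in −log10 p). The highest pileup of a library in a region was divided by the library median over regions called in all 4. Log2 values were compared with limma 3.58.1 (R 4.3.3) with a mean-variance trend, Benjamini-Hochberg adjusted over 57783 regions, threshold 0.05. A region without a peak in a library was not listed at a q of 0.05, and its level there is unknown. Gene spans came from the reference table for GRCm38.p6, which gives no exons. Scripts were tested on simulated data.

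Of the regions, the text names those at gene ends or starts, the strongest of each member, those called in 1 group alone, those past the threshold, and the 5 without overlap that differed most. The gene most like Nodal in coverage is not reported here.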

Additional observations from a re-analysis of the deposited data

How the results depend on the processing

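With 2 libraries per group and no read totals, small differences were not detectable, and a region absent from a list may be open below the caller's threshold. Over 17 named shared regions and 12 alternatives of the pileup, 180 of 197 values kept direction and side of the threshold. Another 7 lost the threshold and 7 reached it. Only the called Lefty1 region was past the threshold as reported, and all 7 losses were of that region. For the other regions staying short of the threshold counted as kept, so the 180 does not measure how stable the call was. The strongest Nodal region (log2 0.09) turned to -0.0014 with quantile normalisation, -0.056 with the median within 1 Mb, a scaling chosen after seeing the data, and ranged from -0.13 (without SOX2 replicate 1) to 0.21 without one library.

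The 46 member regions called in all 4 libraries (38.0%, against 33.8% of all regions) became 18 at a -log10 q of at least 5 (30.5%, against 34.5%). They became 8 at 10 (28.6%, against 31.7%) and 19 with the strongest 50000 peaks (36.5%, against 40.3%). With 10 and 50 kb windows they were 30 and 76 (35.3% and 36.9%, against 33.8%). Without one library they were 46 to 56 (42.7% to 48.7%, against 39.1% to 41.9%). The SOX17FNV-only region became 2 with lists of equal length (2.0%, against 3.87%) and 0 when peaks had to overlap by 0.5 of the shorter one (against 2.84%). The count was 0 and 7 with 10 and 50 kb, and 2 to 16 without one library (1.74% to 14.0%, against 4.64% to 15.4%). SOX2-only regions, 3 as reported, were 1 at a -log10 q of at least 10 and 3 to 16 without one library. The shares lay on both sides of those of all regions. The 16 SOX17FNV-only regions without SOX17FNV replicate 2 are 14.0%, against 15.4% of all regions. The 16 SOX2-only regions without SOX2 replicate 2 are 13.9%, against 17.9%. SOX17FNV-only shares were higher than in all regions with 50 kb windows (3.40%, against 3.06%), and by a small margin without SOX2 replicate 1. They were also higher at a -log10 q of at least 10 (3.57%, against 3.31%). SOX2-only shares were higher at a -log10 q of at least 5 (5.08%, against 3.24%) and at 10 (3.57%, against 2.78%). The 4 named regions called in 1 group alone are not such at a -log10 q of at least 5 or 10, so the counts there are of other regions.

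Calls over all shared regions, 516 higher and 710 lower, were 0 and 0 with scaling to the genome-wide background (where the median of all shared regions moved to 0.24 and that of the members to 0.31), 38 and 170 with fold enrichment, 216 and 460 with quantile normalisation, 233 and 295 at a -log10 q of at least 5, 114 and 285 without the trend, 77 and 224 with the median within 1 Mb, and 274 higher with the chromosome median. They were 55 to 611 and 59 to 1007 without one library. The 1 member call was 0 under each of these but the chromosome median, where it stayed, and 0 to 3 without one library; for lower calls it was 0 to 1. The Lefty1 region is not among those with a -log10 q of at least 5 in every library.

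With the replicate number as a block, limma called 1886 higher and 1788 lower, 3.26% and 3.09% of all shared regions. Of the 46 shared member regions, 5 (10.9%) were called higher, at Lefty1, Lefty2 and Acvr2b, and 0 lower. Deviations of same-numbered libraries correlated at 0.23 over regions, and with 2 pairs the number alone does not show pairing.

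Regions without overlap, 19 with SOX17FNV higher and 5 with SOX2 higher, were 41.3% and 10.9%, against 24.1% and 18.4% of all shared regions. They were 10 and 7 with fold enrichment (21.7% and 15.2%, against 15.7% and 18.6%). At a -log10 q of at least 5 they were 8 and 1 (44.4% and 5.56%, against 22.5% and 19.1%). With background scaling they were 22 and 0 (47.8% and 0%, against 31.5% and 4.18%). Without one library they were 20 to 28 (42.6% to 60.9%, against 29.0% to 41.0%) and 11 to 15 (23.2% to 30%, against 32.0% to 40.5%). For the Lefty genes, 9 and 0 became 2 and 2 with fold enrichment (15.4% each, against 15.7% and 18.6%). They were 6 and 2 with the median within 1 Mb (46.2% and 15.4%, against 20.1% and 19.6%). SOX17FNV was higher in 4 at a -log10 q of at least 5 (66.7%, against 22.5%). Without one library the counts were 9 to 11 (66.7% to 84.6%, against 29.0% to 41.0%) and 0 to 3 (0% to 23.1%, against 32.0% to 40.5%).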
